A study of Homo sapiens with 24 samples.

Results

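The INC424 persistent line and the SAR302503 persistent line of SET2 cells were set against each other, as 6 libraries out of the 24 in the series, 3 from each line, chosen by their labels alone. SET2 is an established human megakaryoblastic cell line that carries an activating mutation of the kinase JAK2, which drives myeloproliferative neoplasms. INC424 is ruxolitinib and SAR302503 is fedratinib. Both are type I JAK inhibitors, which bind the active conformation of the kinase, and each persistent line was grown continuously in RPMI1640 with 20% FCS containing its own inhibitor. The other groups used here were naive SET2 cells in the same medium without inhibitor, and naive cells exposed to INC424 for 4 h or 48 h or to DMSO for 4 h, with 3 libraries each. Where it is said, means of the persistent lines kept in the JAK inhibitors BMS911543 and CYT387 are given beside them. The labels give no inhibitor concentration and do not say whether the 3 libraries of a line came from separate cultures, so the p-values measure only the spread between these libraries. Each inhibitor is represented by 1 persistent line, so the compound and the history of its line cannot be told apart. The question asked was in which genes cells that had come to grow in 1 JAK inhibitor differed from cells that had come to grow in another.

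JAK2 sits on the receptors of blood cell cytokines. When active it phosphorylates STAT5 and STAT3, and it also feeds the RAS and ERK pathway. STAT targets include the feedback inhibitors CISH and SOCS3 and the kinase PIM1, while ERK signalling sustains the transcription factors EGR1, ETV4 and ETV5. In persistent cells JAK and STAT signalling is known to be active again despite the inhibitor, so the level of these genes is of interest in each line.

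The 6 libraries held 23108234 to 36160750 reads. Levels are the authors' normalised counts, which are read counts divided by a size factor of the library, and they are compared only within a gene. The defining SET2 markers ITGA2B, ITGB3, GP9, GATA1, NFE2, GFI1B and RUNX1 were present in every library, while PF4 was at 0 in the SAR302503 line and in naive cells. Libraries of the INC424 line correlated with each other at r = 0.985 to 0.993 over 11457 genes. In the SAR302503 line, libraries 1 and 2 correlated at 0.986, while library 3 correlated with them at 0.964 and 0.943. Correlations between the lines ran from 0.925 to 0.947. SAR302503 library 3 thus stood apart from its group. It also held the most squamous epithelial RNA: 23 marker genes took 0.0197, 0.0483 and 0.0185% of the reads of the INC424 libraries and 0.0207, 0.038 and 0.143% of those of the SAR302503 libraries. Of the 17 of these markers that were tested, only the keratin KRT13 passed the threshold, at 49.9, 181 and 55.5 in the INC424 line against 178, 604 and 2330 in the SAR302503 line, with an adjusted p of up to 0.18 on leaving out a library, and no squamous marker is read as a result. Counts over gene lists below are therefore also given without that library.

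Genes were tested with limma on log2(normalised count + 1), and a log2 difference is always the INC424 line minus the SAR302503 line. Of 17369 genes tested, 926 (5.33%) were higher and 918 (5.29%) lower in the INC424 line at an adjusted p under 0.05. Together that is 10.6% of the genes tested. Every list count given below with all 6 libraries stands against these shares. Without SAR302503 library 3 the counts were 2462 (14.2%) higher and 2751 (15.8%) lower, together 30% of the genes tested. Every list count given below without that library stands against these larger shares. Of the 1844 genes called with all 6 libraries, 1837 were also called without that library in the same direction, 7 were no longer called, and 0 changed sign. With upper-quartile scaling 1120 genes were higher and 734 lower, so that 60.4% of the calls were higher, against 50.2% with the authors' size factors. Of the called genes, 1204 differed by at least 2-fold, and 213 were at least 8-fold higher and 87 at least 8-fold lower. All 1844 called genes had the same sign among the libraries sequenced once (INC424 1 and 2 against SAR302503 2) and among those run again for more reads (INC424 3 against SAR302503 1 and 3). Groups did not overlap for 1842 of the called genes, against 30.5% of all genes tested. For these 1842 genes the sign in each set of libraries was fixed by the lack of overlap, so the shared sign is no separate evidence. Leaving out INC424 library 1, 2 or 3 or SAR302503 library 1 or 2 left 796, 1043, 835, 999 or 1584 called genes. List counts given below without 1 of these libraries stand against these totals out of 17369. Of the 237 called genes that belong to a gene list below or are named by rule, 136 kept their call without each library in turn and 101 lost it at least once, with an adjusted p of up to 0.23. Members of the lists and genes named by rule that are given below as higher or lower are among the 136 unless a highest adjusted p on leaving out a library is printed beside them.

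Most of the genes with the largest positive difference were close to silent in the SAR302503 line, though DLK1 and CLCA1 were detected there. EPB41L3, a membrane skeleton protein, had a normalised count of 1364, 1239 and 1185 in the INC424 line, against 0, 0 and 0.881 in the SAR302503 line and a mean of 15.0 in naive cells. Its log2 difference was 10 ± 0.37 (SE, adjusted p = 1.4e-06). CABP7, a calcium-binding protein, stood at 1221, 1035 and 1202 in the INC424 line against 0, 0 and 8.81 in the SAR302503 line, a log2 difference of 9.07 ± 0.77 (adjusted p = 0.00013) and of 10.17 without SAR302503 library 3. These levels do not overlap, and naive cells (5.81) were near the SAR302503 line. DLK1, an imprinted gene that encodes a Notch-like membrane protein, averaged 9636 ± 1358 in the INC424 line, 63.9 ± 14 in the SAR302503 line and 578 ± 20.5 in naive cells (SD, n = 3 each), so naive cells lay between the lines. Its log2 difference was 7.23 ± 0.20 (adjusted p = 3.1e-07). CLCA1, a secreted regulator of chloride channels, was at 2008, 1796 and 2094 in the INC424 line against 23, 17.8 and 7.93 in the SAR302503 line (log2 difference 6.95, adjusted p = 7e-06). CRHBP, which binds corticotropin-releasing hormone, was at 311, 263 and 303 in the INC424 line and at 0 in all 3 SAR302503 libraries. The other genes that the rule named were the platelet chemokines PPBP and PF4, described with the platelet genes, and HENMT1, a small RNA methyltransferase, GABRQ, a GABA receptor subunit, DLGAP1, a postsynaptic scaffold protein, DGKB, a diacylglycerol kinase, and the unannotated AC012499.1, with log2 differences of 6.56 to 7.43. HENMT1 moved to 8.38 without SAR302503 library 3 and to 6.52 without SAR302503 library 2, and DGKB to 7.31 without SAR302503 library 2.

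Of the genes with the largest negative difference, some were silent or nearly so in the INC424 line, and others, such as ADCYAP1 and LOXL2, were low but detected. Naive cells often expressed these genes. COL15A1, a basement membrane collagen, had 0, 1.70 and 0 in the INC424 line against 276, 243 and 321 in the SAR302503 line and a mean of 47.2 in naive cells (log2 difference -7.65 ± 0.51, adjusted p = 3.2e-05). MS4A4A, a membrane protein of macrophages and mast cells, had 4.54, 34.9 and 6.34 in the INC424 line against 786, 948 and 626 in the SAR302503 line and 1776 in naive cells (log2 difference -6.10; -6.93 without INC424 library 2). The neuropeptide gene ADCYAP1 was at 29.5, 46.8 and 46.0 in the INC424 line and at 900, 837 and 793 in the SAR302503 line, against 22205 ± 971 in naive cells (log2 difference -4.37, adjusted p = 9.4e-06). Both lines thus stood far below naive cells for ADCYAP1, the INC424 line further than the SAR302503 line. The bile salt exporter ABCB11 (6.41 ± 7.38 and 171 ± 51.0, naive 2253 ± 45.8) and the atypical cadherin FAT3 (17.0 ± 1.71 and 366 ± 83.4, naive 2854 ± 64.1) showed the same order of INC424, SAR302503 and naive cells. So did the lysyl oxidase LOXL2, with 30.6 ± 14.1 in the INC424 line, 488 ± 109 in the SAR302503 line and 1968 ± 65.1 in naive cells. The intestinal protease TMPRSS15, the developmental transcription factor EYA1, the receptor GPR3 and the long noncoding RNA UCA1 had log2 differences of -5.25, -5.07, -3.98 and -3.97, and they were lower on average in naive cells than in the SAR302503 line, as COL15A1 was. The uncharacterised RP11-169F17.1 and AC004791.2 completed the 12 at -5.49 and -4.32. In the low counts of ABCB11, EYA1, GPR3, TMPRSS15 and RP11-169F17.1, leaving out a single INC424 or SAR302503 library moved the log2 difference to as little as -4.15, -4.33, -3.11, -4.62 and -4.92 and to as much as -6.12, -5.64, -4.48, -5.67 and -6.61.

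Platelet genes were higher in the INC424 line. Of 29 megakaryocyte and platelet genes tested, 13 were higher and 1 was lower, against 5.33 and 5.29% of all genes, and the median log2 difference of the list was 0.51 against -0.006 over all genes tested. Without SAR302503 library 3 it was 15 higher and 2 lower. Leaving out each other library gave 8 to 12 higher, fewest without INC424 library 1 or 3. PPBP, the precursor of the platelet chemokine NAP-2, was at 432, 503 and 463 in the INC424 line against 0, 0 and 0.881 in the SAR302503 line, with 15.2 ± 6.55 in naive cells. This is 1556 against 1 recovered reads, a ratio of 1309 (95% counting interval 235 to 51724). PF4, platelet factor 4, was at 168, 86.9 and 167 in the INC424 line and at 0 in all SAR302503 and naive libraries, and on the floor of 3 reads per group it was at least 129-fold higher in the INC424 line. TREML1, a receptor of platelet granules, was likewise at 27.2, 17.0 and 39.6 against 0 in the SAR302503 line, at least 26.4-fold higher. THBS1, the adhesive granule protein thrombospondin 1, had 11499, 11999 and 11250 in the INC424 line against 336, 651 and 624 in the SAR302503 line and 665 ± 71.0 in naive cells (log2 difference 4.49 ± 0.23, adjusted p = 7.9e-06). For these 4 genes the SAR302503 line stood at or below naive cells and the INC424 line above both.

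VWF, von Willebrand factor, behaved otherwise: it had 380, 352 and 398 in the INC424 line, 0, 3.81 and 12.3 in the SAR302503 line and 358 ± 13.1 in naive cells, so the SAR302503 line stood apart from both (log2 difference 6.56, adjusted p = 0.00071; 5.56 without SAR302503 library 1 and 7.42 without library 3). SELP, the adhesion receptor P-selectin, was likewise lowest in the SAR302503 line, with 616 ± 33.0 in the INC424 line, 182 ± 23.9 in the SAR302503 line and 1839 ± 62.1 in naive cells (log2 difference 1.76, adjusted p = 0.00035). PLEK, a protein kinase C substrate of platelets, and TUBB1, the platelet tubulin, were higher in both lines than in naive cells and higher again in the INC424 line (PLEK 19875 ± 241, 7875 ± 729 and 3814 ± 236; TUBB1 3665 ± 189, 1967 ± 89.5 and 618 ± 91.9 in INC424, SAR302503 and naive cells). Their log2 differences between the lines were 1.34 and 0.90 (adjusted p = 0.00017 and 0.0017). TBXAS1, thromboxane synthase, was the member that was lower (log2 difference -1.51, adjusted p = 0.001). The integrin pair that marks the lineage did not pass the threshold: ITGA2B had a log2 difference of -0.24 ± 0.18 and ITGB3 of 0.05 ± 0.14.

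**Figure D1:**
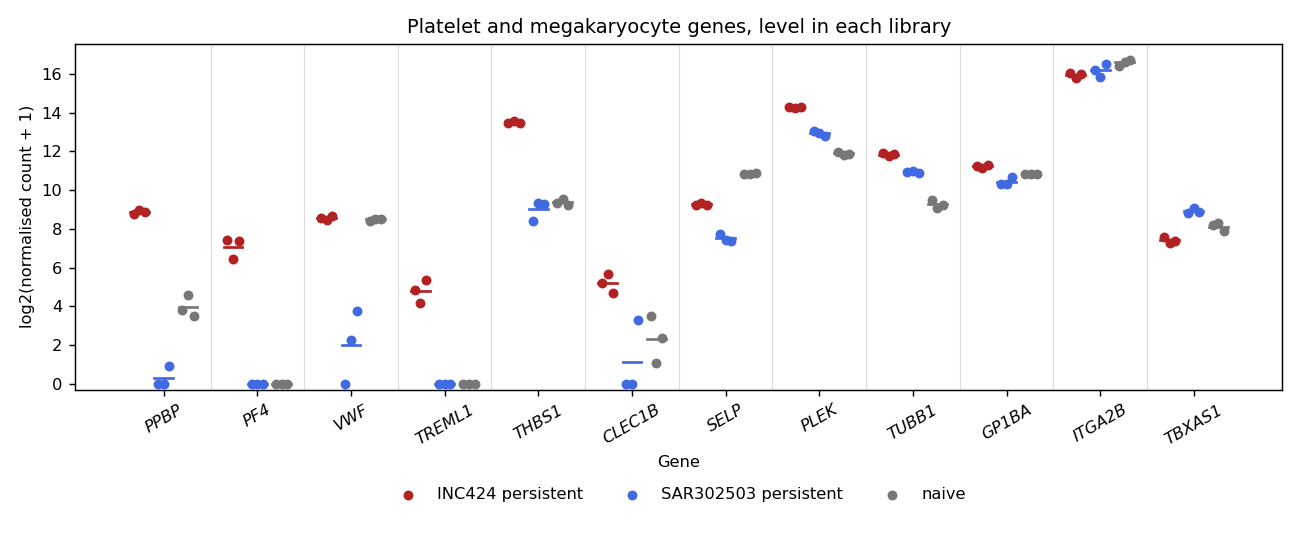
Levels of 12 platelet and megakaryocyte genes as log2(normalised count + 1) (vertical axis) in each of the 3 libraries of the INC424 persistent line, the SAR302503 persistent line and naive cells; short lines are the means. PF4 and TREML1 sit at 0 in all SAR302503 and naive libraries, VWF is low in the SAR302503 line alone of the 3 groups, and ITGA2B is at a like level in all.

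Of 25 red cell membrane and blood group genes tested 8 were higher and 1 lower in the INC424 line (9 and 5 without SAR302503 library 3, 6 or 7 and 1 without any other), with a median log2 difference of 0.20. GYPB, a sialoglycoprotein of the red cell surface, stood at 638 ± 81.7 in the INC424 line and at 103 ± 20.0 in the SAR302503 line (log2 difference 2.63). Reads of GYPB and its near-identical neighbour GYPE (log2 difference 1.73) may be shared between them by the counting. Spectrin SPTB, the anchor protein EPB42 and the anion exchanger SLC4A1 were higher by log2 1.52, 1.41 and 0.88 (adjusted p = 0.00061, 0.00025 and 0.0055). The water channel AQP1 was lower, at 2918 ± 215 in the INC424 line against 8251 ± 822 in the SAR302503 line and 1068 ± 77.9 in naive cells, so it was above naive cells in both. ALAS2, the first enzyme of haem synthesis in erythroid cells, was at 3569, 3168 and 3294 in the INC424 line against 1578, 1330 and 1708 in the SAR302503 line (log2 difference 1.12, adjusted p = 0.001). Of 11 globin genes 2 passed, HBA2 (log2 difference 1.82) and the embryonic HBE1 (0.92), and 6 passed without SAR302503 library 3. Both lost their call on leaving out INC424 libraries, HBA2 also without SAR302503 library 1 (highest adjusted p = 0.11 and 0.063). HBA1 and HBA2 share most of their sequence, so their counts are uncertain as single genes. HBG2, a fetal globin, had 274319, 267415 and 318247 in the INC424 line and 210672, 189162 and 296751 in the SAR302503 line, which overlap.

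Of the lineage transcription factors, GATA1 and KLF1 had log2 differences of 0.14 ± 0.19 and -0.10 ± 0.20 and did not pass. Of 24 factors tested 2 were higher and 4 lower, against 5.33 and 5.29% of all genes tested. Without SAR302503 library 3 it was 5 and 6, and without any other library 0 or 1 and 1 to 4. Among the lower ones was IKZF2, a zinc finger factor of the Ikaros family. It was at 38.6, 46.0 and 30.1 in the INC424 line against 221, 203 and 128 in the SAR302503 line and 971 in naive cells (log2 difference -2.22, adjusted p = 0.002). CD34, the progenitor surface antigen, was lower in the INC424 line: 5421, 4734 and 5006 against 26492, 26307 and 27878, with 31671 ± 2509 in naive cells (log2 difference -2.41 ± 0.12, adjusted p = 6.5e-06). The SAR302503 line thus stood near naive cells. The adhesion receptor CD44 was also lower (log2 difference -1.13, adjusted p = 0.007). In the list of 24 stem and progenitor genes 1 was higher and 4 were lower, against 5.33 and 5.29% of all genes tested. Its median was 0.00, and the counts were 5 and 10 without SAR302503 library 3 and 0 to 2 and 2 to 5 without any other. Myeloid genes divided: of 22 granulocyte, mast cell and basophil genes 3 were higher and 6 lower (3 and 9 without SAR302503 library 3; 2 or 3 and 4 to 6 without any other). The sialic acid receptor CD33 averaged 915 ± 46.2 in the INC424 line, 2479 ± 58.8 in the SAR302503 line and 6272 ± 288 in naive cells. The integrin ITGAX was lower in the INC424 line with a log2 difference of -1.63, and PRG2, the eosinophil major basic protein, with one of -4.13 (-3.19 without INC424 library 2 and -4.94 without INC424 library 3). MS4A3 and the chaperone CLU were higher by 1.11 and 1.56.

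Markers of other cell types moved with the lines as well. Of 7 lymphoid markers tested 5 were lower in the INC424 line (CD3D, CD3G, CD79A, NKG7 and GNLY), of which CD3G lost its call without SAR302503 library 1 and CD79A without INC424 library 2 or 3 (highest adjusted p = 0.072 and 0.068). The list took 0.00407 to 0.00515% of reads in the INC424 line and 0.00744 to 0.0107% in the SAR302503 line. In naive cells it took 0.00964 to 0.0108%. IGHM was at 0 in all 6 libraries. Of 7 stromal and vessel markers tested 5 were higher (LUM, SPARC, FBN1, THY1 and CDH5), and SPARC, THY1 and CDH5 lost their call on leaving out single INC424 libraries (highest adjusted p = 0.16, 0.19 and 0.078). The list took 0.0117 to 0.0131% of reads in the INC424 line and 0.00664 to 0.00835% in the SAR302503 line, with DCN and POSTN at 0 in all 6 libraries. In naive cells it took 0.0157 to 0.0189%, above both lines. Neither of the 2 macrophage markers tested passed, and FCGR3A was at 0 in all 6. Whether SET2 cells or other cells made these transcripts was not tested, nor was the part of such cells in the other differences.

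Most of the kinases and STATs themselves did not pass the test. JAK1, JAK2 and TYK2 had log2 differences of -0.22 ± 0.13, -0.06 ± 0.21 and 0.19 ± 0.19, and STAT5A and STAT5B of 0.36 ± 0.13 and 0.27 ± 0.11, none of which passed. JAK2, the target of both compounds, was at 3707, 4266 and 3623 in the INC424 line against 4332, 5205 and 2872 in the SAR302503 line. The libraries of both lines overlap for it. Of the 11 JAK and STAT genes 3 were lower (2 higher and 4 lower without SAR302503 library 3), but JAK3 and STAT2 were at the threshold (adjusted p = 0.049 for each) and lost their call without single libraries and with TMM or upper-quartile scaling (highest adjusted p on leaving out a library 0.18 and 0.21).

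STAT target genes gave a mixed picture. SOCS3, a feedback inhibitor of JAKs and a STAT3 target, was at 1010, 967 and 1194 in the INC424 line, 7326, 7277 and 10600 in the SAR302503 line and 4021 ± 266 in naive cells. The groups are far apart (log2 difference -2.97 ± 0.18, adjusted p = 1.3e-05). The kinase PIM1 was at 14418, 12602 and 13622 in the INC424 line against 28618, 29698 and 35224 in the SAR302503 line, with 33430 ± 930 in naive cells (log2 difference -1.20 ± 0.13, adjusted p = 0.00046). IL2RA, the high-affinity subunit of the interleukin 2 receptor, and ID1, an inhibitor of helix-loop-helix factors, were lower by log2 -3.31 and -1.45 (adjusted p = 0.0017 and 0.0066). CISH, the classic STAT5 target, did not pass, at 1398, 1161 and 1433 against 1180, 1150 and 1664 (log2 difference 0.01 ± 0.18). SOCS2, PIM2 and MYC did not pass either, at -0.22 ± 0.15, -0.14 ± 0.15 and -0.17 ± 0.16. In all, 1 of 19 STAT5 and STAT3 targets tested was higher and 4 were lower, and the lower count was also 4 on leaving out each library in turn. The higher one, the cytokine LIF (172, 172 and 165 against 41.4, 92.8 and 52.8), lost its call without any INC424 library or SAR302503 library 1 (highest adjusted p = 0.081). The phosphatase PTPN1, which dephosphorylates JAK2, was at 6042, 5116 and 5590 in the INC424 line against 11514, 12398 and 11501 in the SAR302503 line (log2 difference -1.08, adjusted p = 0.00055).

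Of 18 ERK output genes 8 were lower in the INC424 line, 2 were higher and 8 did not pass, with a median log2 difference of -0.73. The lower count was 4 without INC424 library 3 or SAR302503 library 1, and 8 without SAR302503 library 3. The ETS factor ETV4 had 259, 299 and 221 in the INC424 line, 2101, 1793 and 2906 in the SAR302503 line and 2722 ± 240 in naive cells (log2 difference -3.10 ± 0.21, adjusted p = 3.2e-05). ETV5 and the feedback inhibitors SPRY1 and SPRED2 were lower by log2 -1.58, -1.12 and -0.90. The ERK phosphatase DUSP6 was at 97.5, 86.0 and 64.2 against 153, 194 and 166 (log2 difference -1.06, adjusted p = 0.03), and lost its call on leaving out any library but SAR302503 3 (highest adjusted p = 0.15). The ephrin receptor EPHA4 went the other way, 156, 207 and 219 against 18.4, 22.9 and 15.0, with 15.1 in naive cells (log2 difference 3.31, adjusted p = 0.0002). Immediate early genes, which respond to growth signals within minutes, were lower in 8 and higher in 2 of 18, with a lower count of 4 to 8 on leaving out each library, fewest without INC424 library 2 or SAR302503 library 1. EGR1 was at 215, 217 and 143 in the INC424 line against 2233, 2267 and 2446 in the SAR302503 line and 7592 ± 374 in naive cells (log2 difference -3.61 ± 0.19, adjusted p = 8.4e-06). FOS was at 20.4, 31.5 and 30.9 against 234, 173 and 226, and JUNB and FOSL2 were also lower (log2 difference -1.63 and -1.09). JUN, the usual partner of FOS, was higher, at 192, 175 and 233 against 16.1, 24.1 and 69.6 (log2 difference 2.68, adjusted p = 0.0069; 3.26 without SAR302503 library 3; adjusted p = 0.058 in a fit of all 24 libraries).

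**Figure D2:**
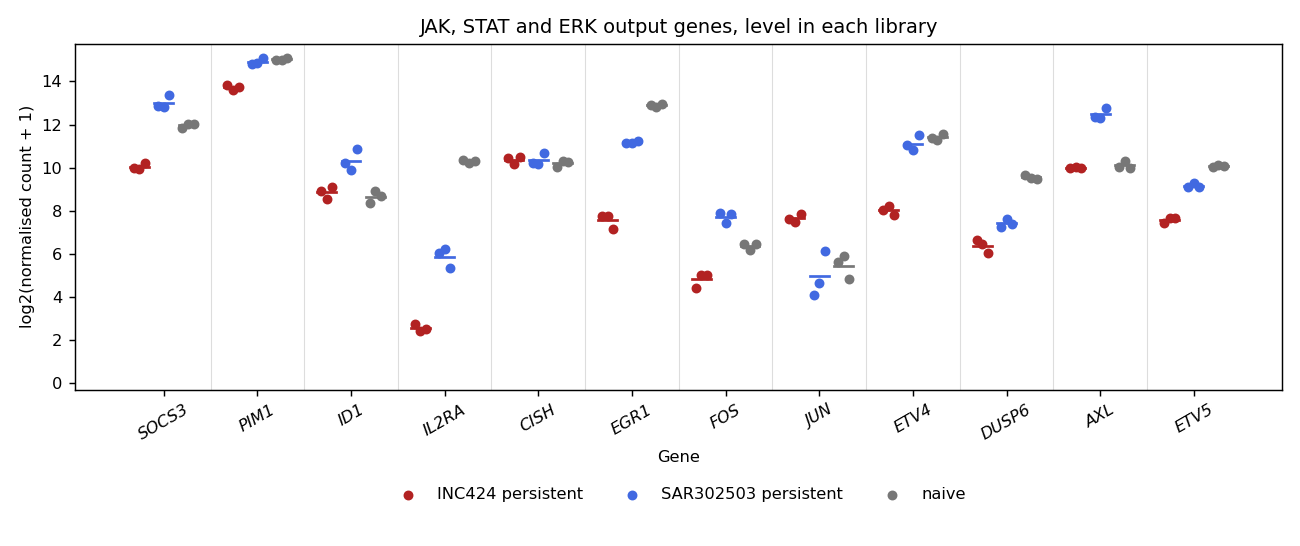
Levels of 12 JAK, STAT and ERK pathway genes as log2(normalised count + 1) (vertical axis) in each of the 3 libraries of the INC424 persistent line, the SAR302503 persistent line and naive cells; short lines are the means. SOCS3, EGR1, ETV4 and AXL are lower in the INC424 line than in the SAR302503 line with no overlap, JUN is higher, and the points for CISH lie together.

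Among 34 cytokine and growth factor receptors tested 3 were higher and 8 lower in the INC424 line, with a median log2 difference of -0.33. Without SAR302503 library 3 it was 5 and 15, and without any other library 2 to 4 and 6 to 8. AXL, a receptor tyrosine kinase for GAS6, was at 999, 1051 and 1003 in the INC424 line and 5199, 5026 and 7059 in the SAR302503 line, against 1114 ± 126 in naive cells. The INC424 line thus stood at the naive level and the SAR302503 line above it (log2 difference -2.48 ± 0.16, adjusted p = 2.1e-05). Its relative MERTK was lower as well (log2 difference -0.84), but in the INC424 line it was below naive cells (828, 808 and 827 against 1522, 1614 and 1302; naive 1745). The interleukin 6 receptor IL6R, the interferon gamma receptor subunit IFNGR2 and the insulin receptor INSR were lower by log2 -1.96, -1.36 and -1.15. IL9R, the interleukin 9 receptor, was higher, at 618, 553 and 708 against 65.6, 39.4 and 80.1, with 238 ± 46.6 in naive cells, which fall between the lines (log2 difference 3.37, adjusted p = 0.00011). KIT, the stem cell factor receptor, did not pass with all 6 libraries (log2 difference -0.60, adjusted p = 0.08) and passed without SAR302503 library 3 (-0.83, adjusted p = 0.00048).

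Glycolysis and hypoxia genes were lower in the INC424 line in 18 of 31 cases and higher in 1, with a median log2 difference of -0.81. The lower count was 22 without SAR302503 library 3 and 14 to 19 without any other. Cells short of oxygen stabilise the factor HIF1, which binds the core sequence ACGTG and raises genes of sugar uptake, glycolysis, pH control and mitophagy. CA9, a carbonic anhydrase widely used as a marker of this response, had 1.13, 1.70 and 0 in the INC424 line against 79.4, 68.6 and 52.0 in the SAR302503 line and 288 ± 31.7 in naive cells, a ratio of recovered reads, SAR302503 over INC424, of 72.1 (95% counting interval 24.3 to 353). BNIP3, a mitophagy receptor, was at 109, 175 and 172 against 1272, 1067 and 898 (log2 difference -2.84 ± 0.24, adjusted p = 0.00011). PFKFB4, which makes the activator of phosphofructokinase, was at 480, 462 and 358 against 2791, 2554 and 2822 (log2 difference -2.66 ± 0.16, adjusted p = 1.5e-05). For BNIP3 and PFKFB4 the SAR302503 line stood near naive cells (1007 and 2794). The collagen hydroxylase P4HA1 and the glucose transporter SLC2A3 were lower by log2 -1.73 and -1.53, and VEGFA, the vascular growth factor, by -1.29. Lactate dehydrogenase LDHA stood at 12824, 14348 and 12570 in the INC424 line against 31064, 32168 and 29666 in the SAR302503 line and 23945 ± 4950 in naive cells (log2 difference -1.23 ± 0.12, adjusted p = 0.00024). Phosphoglycerate kinase PGK1, hexokinase HK2 and enolase ENO2 were lower by -1.11, -1.0 and -0.88. The transporter SLC2A1 and GAPDH did not pass (log2 difference -0.18 ± 0.15 and -0.59 ± 0.22).

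EGLN3, an oxygen-sensing prolyl hydroxylase and itself a HIF target, was the member that was higher, at 111, 93.7 and 99 against 18.4, 6.35 and 14.1, with 6.95 ± 5.53 in naive cells (log2 difference 2.98 ± 0.43, adjusted p = 0.0021; 0.056 in a fit of all 24 libraries). The 250 bases before the start of 3 genes that were lower and of EGLN3 are shown, because all 4 are known HIF targets and EGLN3 differed in direction. Sequences are from RefSeq for GRCh38.p14, in the direction of the gene, with every ACGTG of either strand in capitals (its reverse complement reads CACGT). The windows are CA9 at chr9:35673678-35673927, BNIP3 at chr10:131981924-131982173, ANKRD37 at chr4:185396591-185396840 and EGLN3 at chr14:33951075-33951324, with CA9 and ANKRD37 on the plus strand and the other two on the minus strand.
CA9: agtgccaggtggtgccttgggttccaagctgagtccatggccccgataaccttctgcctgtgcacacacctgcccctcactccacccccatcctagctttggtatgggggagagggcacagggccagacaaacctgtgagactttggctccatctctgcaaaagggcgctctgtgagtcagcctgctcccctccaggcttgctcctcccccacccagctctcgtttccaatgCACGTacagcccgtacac
BNIP3: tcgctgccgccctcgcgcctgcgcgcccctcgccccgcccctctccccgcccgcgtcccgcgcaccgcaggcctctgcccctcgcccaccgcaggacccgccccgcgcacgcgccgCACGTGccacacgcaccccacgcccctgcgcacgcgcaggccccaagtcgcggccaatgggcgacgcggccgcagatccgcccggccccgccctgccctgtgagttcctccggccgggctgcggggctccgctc
ANKRD37: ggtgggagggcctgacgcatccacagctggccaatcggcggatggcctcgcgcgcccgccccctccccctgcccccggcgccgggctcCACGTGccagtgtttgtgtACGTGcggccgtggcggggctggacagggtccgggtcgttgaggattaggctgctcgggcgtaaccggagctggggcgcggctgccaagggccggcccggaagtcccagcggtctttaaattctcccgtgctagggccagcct
EGLN3: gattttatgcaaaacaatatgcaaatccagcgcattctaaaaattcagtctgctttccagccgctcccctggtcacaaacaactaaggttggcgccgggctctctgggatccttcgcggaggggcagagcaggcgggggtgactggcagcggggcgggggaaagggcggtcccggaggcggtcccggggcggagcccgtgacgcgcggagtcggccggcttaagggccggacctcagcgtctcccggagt
CA9 holds 1 match, BNIP3 holds 2 that overlap as CACGTG, ANKRD37 holds 3 of which 2 overlap, and EGLN3 holds 0. Of the list members that were lower, 15 had such a window in the table and 13 of them held the core, as did 5 of the 12 other tested members with a window, against 18.5% of all 35116 windows. A gene was counted if any of its windows held the core, while the 18.5% is a share of single windows, so the units differ. A match describes the letters of this window only. ANKRD37, an ankyrin repeat protein, was at 15.9, 22.1 and 50.7 in the INC424 line against 89.8, 122 and 126 in the SAR302503 line (log2 difference -2.04, adjusted p = 0.016), and its call was lost without INC424 library 1 or 2 (highest adjusted p = 0.07).

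**Figure D3:**
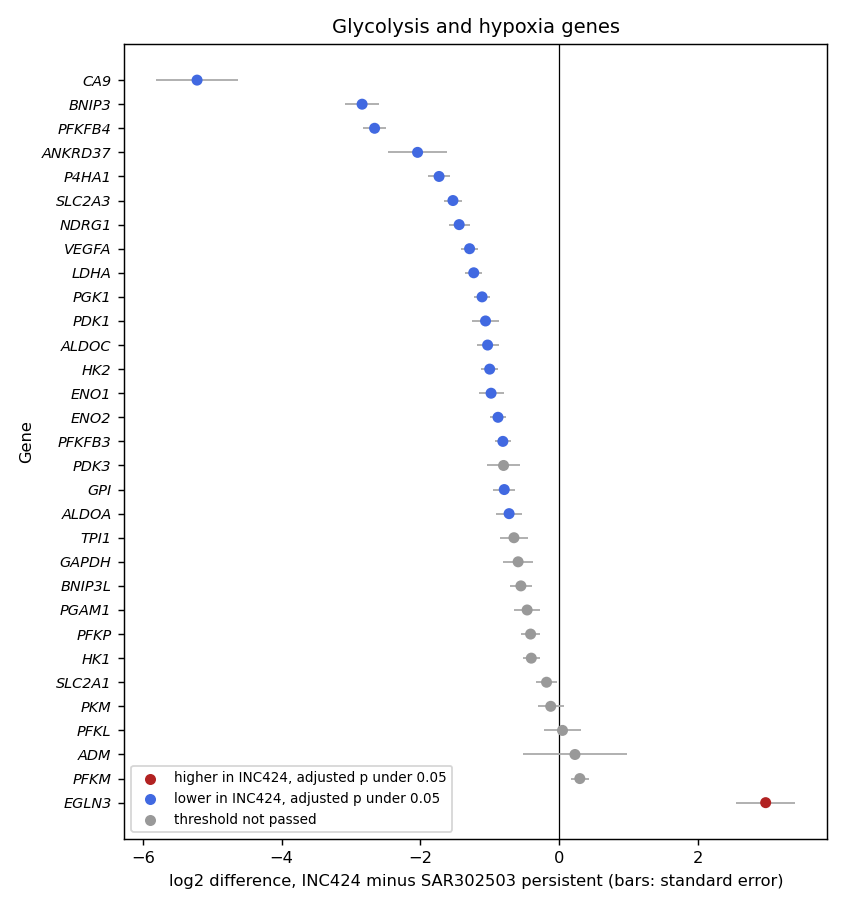
Log2 difference, INC424 minus SAR302503 persistent line, with its standard error (horizontal axis) for each of the 31 glycolysis and hypoxia genes tested (vertical axis, ordered by the difference). The 18 blue genes were lower in the INC424 line at an adjusted p under 0.05, EGLN3 in red was higher at 2.98, and grey genes did not pass.

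Genes of the ATF4 and amino acid response were higher in the INC424 line: 19 of 39 tested were higher and 1 was lower, and the median log2 difference was 0.58. Without SAR302503 library 3 it was 27 and 2. Without the other libraries the higher count was 6 to 16, fewest without INC424 library 1. ATF4 is a transcription factor that is translated when amino acids run short or the endoplasmic reticulum is stressed, and it raises genes of amino acid synthesis and import. VLDLR, a lipoprotein receptor, was at 255, 191 and 170 in the INC424 line against 13.8, 3.81 and 15.0 in the SAR302503 line and 84.2 in naive cells (log2 difference 4.28, adjusted p = 0.00057). CHAC1, which degrades glutathione, was at 2753, 2182 and 3071 against 537, 581 and 1044 (log2 difference 1.94 ± 0.25, adjusted p = 0.0012). The factor ATF5, the cysteine synthesis enzyme CTH, the glycine transporter SLC6A9 and the stress sensor SESN2 were higher by log2 1.16, 1.12, 1.07 and 1.04. ATF4 itself was at 27021, 26912 and 29548 in the INC424 line against 16793, 13931 and 19811 in the SAR302503 line (log2 difference 0.74, adjusted p = 0.012), and lost its call without INC424 library 1 or 3 or SAR302503 library 1 (highest adjusted p = 0.078). Asparagine synthetase ASNS was higher by log2 0.58 (adjusted p = 0.032), also not without INC424 libraries 1, 2 or 3 or SAR302503 library 1 (highest adjusted p = 0.15). DDIT3 and TRIB3, other stress targets of ATF4, did not pass (log2 difference 0.59 ± 0.19 and 0.50 ± 0.17). Naive cells were not uniformly nearer to 1 line: ATF4 averaged 22573 and ATF5 averaged 1915 in naive cells, between the lines for ATF4 and above both for ATF5. The C/EBP-ATF element TGATGNAAN, with either strand searched, occurred in a 250-base window of CHAC1 and of ASNS. These windows are given because both genes are textbook members of the response. CHAC1 had 1 window and ASNS had 2, of which the window with the most matches is shown.
CHAC1: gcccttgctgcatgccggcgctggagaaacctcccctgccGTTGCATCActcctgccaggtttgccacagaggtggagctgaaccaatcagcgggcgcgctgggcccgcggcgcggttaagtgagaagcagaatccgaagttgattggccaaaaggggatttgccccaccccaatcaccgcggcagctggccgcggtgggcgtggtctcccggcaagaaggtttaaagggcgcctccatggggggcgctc
ASNS: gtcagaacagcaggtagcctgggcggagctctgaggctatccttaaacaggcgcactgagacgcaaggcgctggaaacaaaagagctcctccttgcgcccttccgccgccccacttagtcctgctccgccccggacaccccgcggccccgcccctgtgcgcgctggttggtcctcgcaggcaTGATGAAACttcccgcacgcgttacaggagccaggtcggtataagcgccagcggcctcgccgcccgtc
Capitals mark the match, on the opposite strand for CHAC1 (chr15:40953221-40953470, plus strand) and on the strand shown for ASNS (chr7:97872409-97872658, minus strand). Of the 19 members that were higher, 14 had a window and 2 held the element, as did 3 of the 12 others with a window, against 3.13% of all windows. Here too genes were counted by any of their windows, and the 3.13% is a share of single windows.

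Antigen presentation split by class. Of 15 class II genes tested 6 were higher and 0 lower by limma in the INC424 line, and 1 had a negative difference; edgeR and DESeq2 also called 0 lower. The median log2 difference was 0.83. The higher count was 7 without SAR302503 library 3 and 3 or 4 without any other. HLA-DRA, the class II alpha chain, was at 497, 360 and 560 in the INC424 line, 151, 116 and 165 in the SAR302503 line and 2319 ± 334 in naive cells (log2 difference 1.70 ± 0.24, adjusted p = 0.0019). HLA-DRB1 was at 474, 304 and 448 against 74.8, 63.5 and 122 (log2 difference 2.25), though reads of the near-identical HLA-DRB genes may be shared. Both lines were below naive cells for these genes, the SAR302503 line more so. The master regulator CIITA and the invariant chain CD74 did not pass (log2 difference 0.34 ± 0.33 and 0.13 ± 0.19). Of 18 class I genes 6 were lower and 0 higher, and edgeR and DESeq2 also called 0 higher. The lower count was 1 to 9 on leaving out each library, fewest without INC424 library 2. The peptide transporter TAP1 was at 4768, 4105 and 4461 in the INC424 line against 8052, 7055 and 9473 in the SAR302503 line (log2 difference -0.87, adjusted p = 0.0044). B2M, the shared light chain, did not pass (log2 difference -0.28 ± 0.15).

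Interferon-stimulated genes were lower in 10 and higher in 2 of 41, with a median log2 difference of -0.45 (17 and 4 without SAR302503 library 3, 6 to 9 and 2 or 3 without any other). The tether BST2 was at 553, 460 and 615 in the INC424 line against 1691, 1435 and 2361 in the SAR302503 line and 3214 in naive cells (log2 difference -1.73, adjusted p = 0.00077). The guanylate-binding proteins GBP2 and GBP5 and the restriction factor TRIM22 were lower by log2 -1.43, -1.26 and -1.23. IFIT1, which binds uncapped RNA, went the other way, at 420, 534 and 428 against 74.8, 85.1 and 36.1, with 71.5 ± 10.6 in naive cells (log2 difference 2.88 ± 0.32, adjusted p = 0.00057). IFIT2 was higher too (log2 difference 1.55, adjusted p = 0.0097).

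Growth factor and matrix genes held some of the largest single differences. IGFBP5, which binds insulin-like growth factors, was at 5248, 4671 and 5092 in the INC424 line, 73.7, 114 and 106 in the SAR302503 line and 39.9 ± 11.1 in naive cells (log2 difference 5.68 ± 0.19, adjusted p = 1e-06). PAPPA, a protease that cleaves such binding proteins, was higher (989, 943 and 967 against 129, 174 and 107), while IGFBP2 and IGFBP4 were lower (log2 difference -1.47 and -1.50). LTBP1, which stores latent TGF-beta, was at 7739, 7693 and 8154 in the INC424 line against 1240, 1432 and 1054 in the SAR302503 line (log2 difference 2.67). The TGF-beta and BMP target ID2 was lower by -1.38. The adhesion molecule NCAM1 and the cadherin CDH2 were higher by log2 3.58 and 2.14, and the integrins ITGB5 and ITGA4 were lower by -1.60 and -0.96. Of the ABC transporters and drug metabolism genes 5 of 19 were higher and 1 lower (6 and 3 without SAR302503 library 3, 3 to 6 and 1 without any other). Among them were the sterol exporter ABCG1 (147, 142 and 171 against 6.91, 12.7 and 29.1; log2 difference 3.38) and CYP1B1, a xenobiotic oxidase (264, 247 and 328 against 40.3, 50.8 and 115; 2.15). The multidrug transporter ABCG2 was at 80.5, 111 and 105 against 32.2, 34.3 and 15.9 (log2 difference 1.87, adjusted p = 0.012), and lost its call without INC424 library 2 or 3 (highest adjusted p = 0.072).

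Chromatin regulators and imprinted genes included genes for which the SAR302503 line stood apart from naive cells. NSD1, a histone H3 lysine 36 methyltransferase, was at 2849, 2967 and 2656 in the INC424 line, 397, 456 and 398 in the SAR302503 line and 3187 ± 229 in naive cells. Its log2 difference was 2.76 ± 0.14 (adjusted p = 7.6e-06), and the means of the BMS911543 and CYT387 persistent lines were 2672 and 2921. The only other call among 30 chromatin regulators with all 6 libraries was EED, a subunit of the Polycomb complex PRC2, at 3565, 3733 and 3562 in the INC424 line against 9426, 10168 and 5631 in the SAR302503 line and 3605 ± 357 in naive cells (log2 difference -1.17, adjusted p = 0.0068); without SAR302503 library 3 there were 2 higher and 10 lower. The imprinted noncoding RNA MEG3, a neighbour of DLK1, was at 14582 ± 1108 in the INC424 line and 7574 ± 486 in the SAR302503 line (log2 difference 0.94, adjusted p = 0.0012), against 14810 ± 6310 in naive cells. H19 was lower (log2 difference -1.66). Of 20 imprinted genes 4 were higher and 2 lower (5 and 4 without SAR302503 library 3, 3 or 4 and 2 without any other). Cancer testis antigens on the X chromosome divided, with MAGEC1 higher (589, 745 and 637 against 180, 192 and 174) and MAGEC2 lower (44.2, 17.9 and 40.4 against 257, 297 and 235).

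With all 6 libraries limma called 0 of 27 S phase genes, 0 of 22 heat shock genes, 0 of 30 ribosome biogenesis genes, 0 of 29 ribosomal protein genes, 0 of 14 BCL2 family genes and 0 of 16 histone genes. At an unadjusted p under 0.05 the counts were 2, 1, 3, 1, 2 and 1. In those lists edgeR called 0 and DESeq2 called 1 ribosome biogenesis gene and 1 BCL2 family gene. Without SAR302503 library 3 limma called 3 higher and 2 lower in S phase, 3 and 6 in heat shock, 4 and 5 in ribosome biogenesis, 2 and 1 in ribosomal proteins, 2 and 1 in the BCL2 family, and 0 histone genes. Over all genes tested that fit called 14.2% higher and 15.8% lower, so these counts are not read as a result about the lists. The median log2 difference of these lists lay between -0.11 and 0.04 with all 6 libraries, except for the histones at -0.46. The mitochondrially encoded genes had a positive difference in 13 of 13 cases with a median of 0.59, with only MT-ATP8 past the threshold with all 6 libraries (log2 difference 3.23, and 2.45 to 4.16 on leaving out each library), and not without INC424 library 1 or 2 (highest adjusted p = 0.085). Without SAR302503 library 3, 6 of the 13 were higher.

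**Figure D4:**
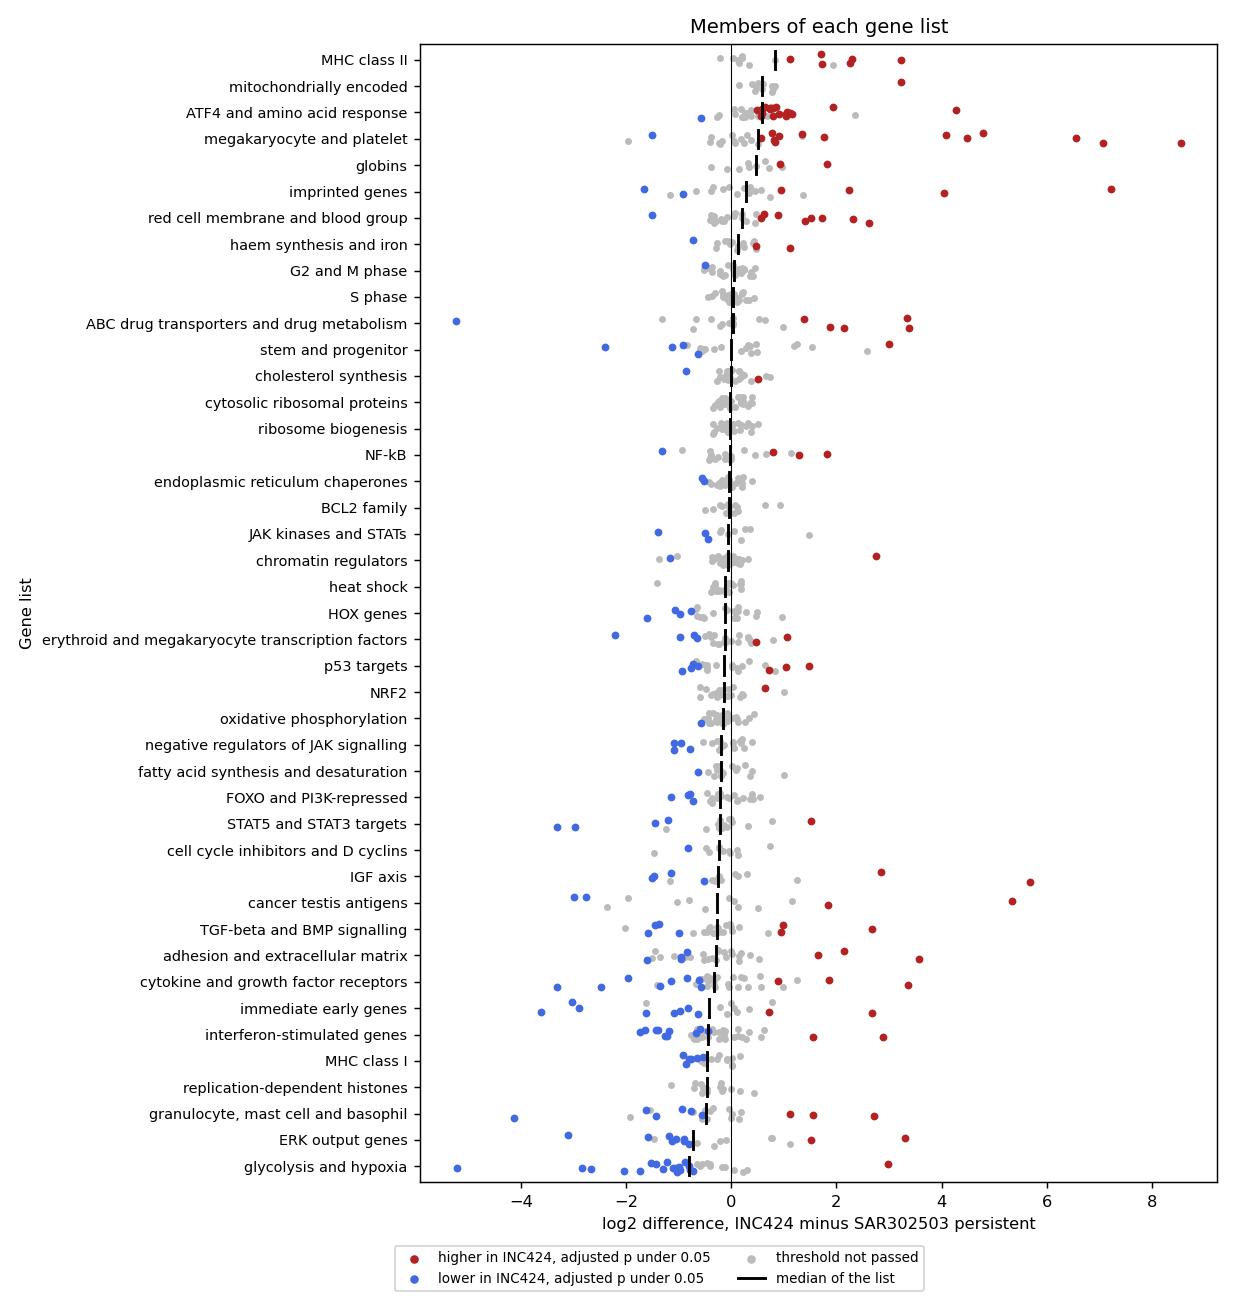
Log2 difference, INC424 minus SAR302503 persistent line (horizontal axis), of every tested member of each of the gene lists (rows, ordered by median); coloured points passed an adjusted p of 0.05 and black bars are list medians. The medians run from 0.83 for MHC class II to -0.81 for glycolysis and hypoxia, and single members such as DLK1 and IGFBP5 lie far from the median of their list.

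A number of genes were detected in only 1 of the 2 lines, taken as at most 3 recovered reads summed over the 3 libraries of the other line and a normalised count of 10 or more in each library of the first. There were 66 such genes in the INC424 line, 31 of them with 0 reads in the SAR302503 line, and 15 in the SAR302503 line, 4 of them with 0 reads in the INC424 line. Their choice used the same contrast, so that they passed its test adds nothing. On leaving out single libraries 29 of the 66 and 6 of the 15 lost their call (highest adjusted p = 0.15 and 0.076 in limma). Besides genes given above, those of the INC424 line included SHE, an adaptor protein (168, 132 and 166 against 1.15, 1.27 and 0.881), the DNA repair enzyme MGMT (45.4, 25.5 and 87.9 against 0, at least 50.7-fold higher) and the chemokine CXCL5 (at least 27.5-fold higher), of which MGMT and CXCL5 were chosen after their values were seen. Those of the SAR302503 line included the mesothelial antigen MSLN (at least 32.1-fold lower, with 186 in naive cells), PRR9 (at least 23.8-fold lower) and IGLON5, a neuronal adhesion protein. CD3G and SDR42E1 were among the 6 genes of the SAR302503 line that lost their call (highest adjusted p = 0.072 and 0.066; SAR302503 1 for CD3G, INC424 1 or 2 or SAR302503 1 for SDR42E1). The intervals and floors cover counting error only.

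Naive cells, which are not part of the contrast, show where each line stood. Of the 926 genes higher in the INC424 line, the mean log2 level of naive cells was nearer to the INC424 line in 419 and nearer to the SAR302503 line in 507, and it lay between the lines in 519, above both in 170 and below both in 231. In the other 6, all libraries of naive cells and of the SAR302503 line were at 0. Of the 918 lower genes, naive cells were nearer to the INC424 line in 227 and nearer to the SAR302503 line in 691, and they lay between the lines in 387, above both in 425 and below both in 106. By this count the SAR302503 line was the nearer to naive cells for most of the lower genes. The response of naive cells to acute INC424 shares no library with the contrast. DMSO was given for 4 h only, so in the 48 h comparison the inhibitor and the difference in time cannot be told apart. Over the genes tested, the difference between the persistent lines correlated with INC424 at 48 h minus DMSO at r = 0.03 and with INC424 at 4 h minus DMSO at r = -0.06, across genes that are not independent replicates. INC424 at 48 h was above DMSO for 522 of the 926 higher genes (56.4%, against 49.9% of all genes tested) and below DMSO for 406 of the 918 lower genes (44.2%, against 50%). At 4 h the counts were 426 (46.0%, against 49.9%) and 354 (38.6%, against 50.1%).

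Neighbouring genes moved together on chromosome 15. The order of genes was taken from RefSeq by symbol, which placed 14600 (84.1%) of the genes tested. Over the 464 genes of chromosome 15 the median log2 difference was 0.26, with 359 (77.4%) positive, 64 higher and 11 lower past the threshold, or 13.8 and 2.37%. Medians of the other chromosomes lay between -0.18 (chromosome 2) and 0.10 (chromosome 22). The chromosome 15 median was 0.21 without SAR302503 library 3, 0.19 among libraries sequenced once, 0.31 among those run again, and 0.34 with upper-quartile scaling, under which the median of all genes tested was 0.073 against -0.006 with the authors' size factors. Set against naive cells and relative to the median of all placed genes, the chromosome 15 median was 0.29, 0.31 and 0.30 in the 3 INC424 libraries and 0.00, 0.02 and -0.10 in the 3 SAR302503 libraries. It was 0.30 to 0.32 in the BMS911543 persistent libraries and -0.07 to -0.01 in naive cells given INC424 or DMSO. In the CYT387 persistent libraries 1, 2 and 3 it was -0.06, -0.34 and -0.06. CYT387 library 2 also stood apart from the others of its line on other chromosomes, such as 21 at -0.63 and 5 at 0.40.

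**Figure D5:**
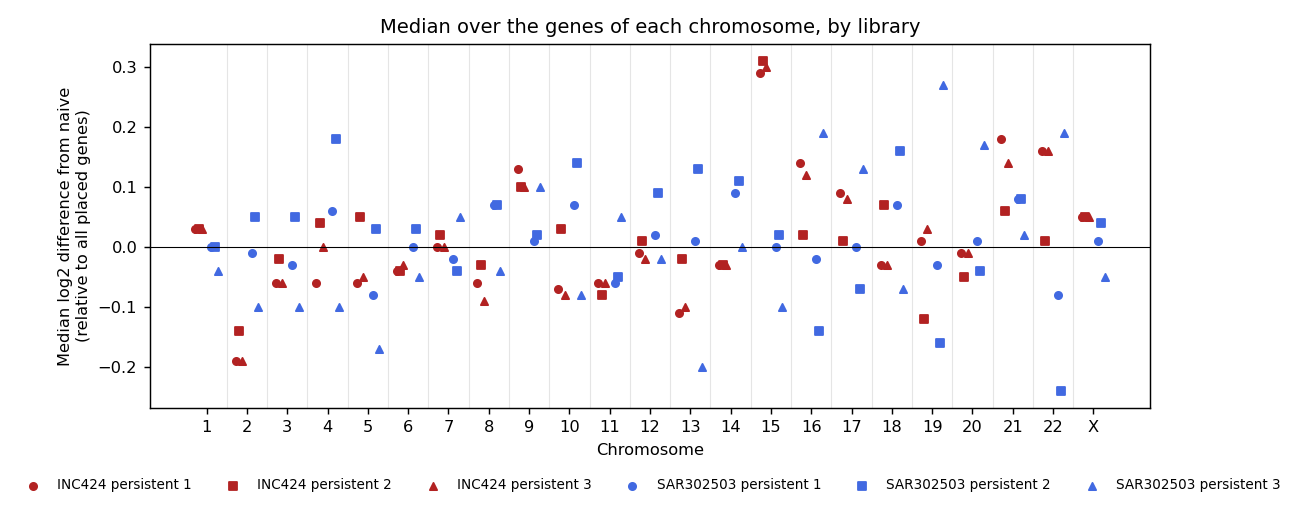
Median log2 difference from naive cells over the genes of each chromosome, relative to the median over all placed genes (vertical axis), in each library of the INC424 and SAR302503 persistent lines (symbols), by chromosome (horizontal axis). On chromosome 15 the 3 INC424 libraries lie at 0.29 to 0.31 and the 3 SAR302503 libraries at -0.10 to 0.02; on chromosomes 19 and 22 the SAR302503 libraries differ among themselves, with library 3 the highest.

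In windows of 40 neighbouring tested genes, medians of the log2 difference ran from -0.81 to 0.51. The highest lay on chromosome 15 between CHEK2P2 and RYR3, with 35 of 40 genes positive and 11 higher, among them the ubiquitin ligase HERC2, the noncoding SNHG14 and the calcium release channel RYR3. The lowest window was on chromosome 19 between SIGLEC11 and SIGLEC14, with a median of -0.81 (-0.54 without SAR302503 library 3). Of its 40 genes 26 were negative and 14 positive. In it 12 genes were lower, among them CD33, NKG7 and the sialic acid receptors SIGLEC5, SIGLEC6, SIGLEC10 and SIGLEC12. The genes named inside these windows were chosen after their values were seen. Some of these SIGLEC genes are close copies, whose reads the counting may divide between them. A further low window spanned PAK1IP1 to SOX4 on chromosome 6, at -0.42 with 33 of 40 genes negative.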

How the data were processed

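Per the labels' protocols, mRNA was selected by its poly(A) tail, cut with RNase III, amplified by 16 cycles of PCR and sequenced on an Ion Torrent instrument. The table holds 25082 genes by 24 libraries in 8 groups of 3. Per the submitters' processing notes, the tools were BWA 0.7.5.1, HTSeq 0.5.3p3, DESeq 1.10.1 with hg19, GRCh37 as builds; strand is not given in the sources used here. The deposited values are a signal that the authors made by dividing gene read counts by a size factor per library, called normalised counts here. They are whole multiples of the value of 1 read in each library (100% of values within 0.01), so whole reads were recovered, 23108234 to 36160750 per library in the 6 compared.

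A gene was tested if 3 or more of the 6 libraries had a normalised count of 10 or above. The test was limma 3.58.1 in R 4.3.3 (two-sided, empirical Bayes with trend) on log2(normalised count + 1), with Benjamini-Hochberg adjustment over all genes tested and a threshold of 0.05; a permutation of 3 against 3 could not go below p = 0.1. The fold is understated for low genes on this scale. edgeR 4.0.16 and DESeq2 1.42.0 on recovered reads, other scalings, filters and pseudocounts, a run-again term, a replicate block and leaving out each library were alternatives, and the fit was tested on simulated data. Named are the 12 genes with the largest difference each way (mean of at least 50, no overlap, same call without SAR302503 replicate 3), members of the gene lists, the 8 highest genes of 1 line only and the ends of windows. The members and lists were chosen with earlier results of these data known. Whether replicate numbers pair the libraries is not settled. The deviations of same-numbered libraries from their group means correlated at -0.03, 0.50 and 0.37 for numbers 1, 2 and 3. No pair of replicates agreed within sampling noise. Promoter windows are from RefSeq on GRCh38.p14, and gene order was taken from it by symbol.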

Additional observations from a re-analysis of the deposited data

How the results depend on the processing

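Counts of genes higher and lower in the INC424 line were within 1.5 times 926 and 918 under 12 alternatives to the fit, among them edgeR (879 and 876), DESeq2 (1235 and 1329), TMM scaling (924 and 923), upper-quartile scaling (1120 and 734), a run-again term (922 and 927) and all 24 libraries in the fit (1203 and 1343). With 23 libraries in the fit, all but CYT387 replicate 2, 4402 genes were called (2048 higher, 2354 lower). Sample quality weights gave 10446 (5173 and 5273), but their estimation did not converge, and there alone among the alternatives a named gene changed sign with a call, RPLP0 at 0.49; the cause was not tested. Leaving out 1 library in turn gave 796 to 5213 called genes, 377 to 2462 higher and 419 to 2751 lower, with the highest counts without SAR302503 replicate 3. Since it is not settled whether the replicate numbers pair the libraries, the fit with a replicate block is given only here: 2763 genes, 1327 higher and 1436 lower. Of 162 named genes that passed, 103 kept their call in all 21 settings. With 0 reads allowed in the other line instead of 3, genes detected in 1 line were 31 for INC424 and 4 for SAR302503. In windows of 80 genes the medians ran from -0.38 to 0.42. The list medians of JAK kinases and STATs, chromatin regulators, NF-kB, ribosome biogenesis, ribosomal proteins, endoplasmic reticulum chaperones and the BCL2 family were -0.06 to -0.02 and changed sign with upper-quartile scaling. Depth limits the genes detected in 1 line only, where the other line holds at most 3 reads.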
